A study of Gallus gallus with 8 samples.

Results

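The 8 genes described here, SNAI1, SNAI2, FOXD3, TFAP2A, TFAP2B, ETS1, MYB and ZEB2, encode transcription factors of the neural crest gene network. They were chosen by gene name, with earlier results of these data known, and all of their probe sets were taken. A probe set is the group of array probes that reads 1 transcript sequence. The 8 genes had 17 probe sets of 38439 that were tested, and in the count by gene they were 8 of 13248. The deposited symbols gave 10 of these probe sets. The other 7 carried the older names LOC396047 and LOC396235, which are SNAI1 and ETS1 by their gene IDs.

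The arrays held RNA of sorted trunk neural tube cells from white Leghorn chick embryos, and the labelled cell type was embryonic neuroepithelial cells. Embryos at stages 10 to 11 of Hamburger and Hamilton were electroporated in ovo with pBRE-tk-EGFP, a green reporter behind a BMP-responsive element (BRE), and pCAGGS-IRES-H2B-RFP, a nuclear red protein behind a ubiquitous promoter. After 24 h the neural tubes of nearly 30 embryos were pooled and dissociated, and red cells were sorted into cells with green fluorescence (BRE_active) and cells without it (BRE_inactive). Both groups were thus gated on red fluorescence and came from electroporated embryos, and each of the 4 pools gave 1 array per group, 8 arrays in all. The green fraction is defined by a plasmid reporter and not by a single cell type, so each array is a mixture. In such bulk samples fewer cells of a type and less RNA per cell cannot be told apart.

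Neural crest cells arise at the dorsal edge of the neural tube, where BMP and Wnt signals meet, and leave the epithelium by an epithelial-mesenchymal transition. A set of transcription factors, often called crest specifiers, is switched on in these cells before they leave. SNAI1 and SNAI2 are zinc finger repressors that bind E-box motifs in cadherin and other epithelial genes. ZEB2 is a larger zinc finger and homeodomain repressor that also binds E-boxes and interacts with SMAD proteins, the effectors of BMP signalling. FOXD3 is a forkhead factor of premigratory crest cells. TFAP2A and TFAP2B are AP-2 factors, of which TFAP2A also acts in surface ectoderm. ETS1 is known in chick mainly from the cranial crest and also from endothelium. MYB is best known from blood progenitors and has also been described in chick crest.

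Array medians differed little (4.24 to 4.32 on the log2 scale). Of the neural tube markers that check the labelled tissue, 5 of 6 measured ventral, 2 of 5 dorsal and 7 of 7 neuron markers were present on at least 4 arrays. Red cell markers were present too and were much lower in BRE_active cells. The mean of 8 measured markers ranged from 6.50 to 9.06 on the BRE_active and from 10.3 to 12.0 on the BRE_inactive arrays (log2). By limma (adjusted p under 0.05) 5 of the 8 were called lower, where 0.657% of all genes were. A sign of RNA or cRNA length, the 3-prime minus 5-prime signal averaged over 3 control genes, had a mean of 2.92 in BRE_active and 2.60 in BRE_inactive cells (log2), with the same order in 4 of 4 pools. It was smallest in pool 4 in both groups, at 2.41 and 2.21. The part of red cell RNA and of this gap in the results below was not tested.

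The comparison asks how levels of the crest factors differ between reporter-positive cells and reporter-negative cells of the same embryos. SNAI2, FOXD3, TFAP2A and TFAP2B rose in BRE_active cells, each by more than 3-fold. ZEB2 was higher in all 4 pools but, among the fits on all 8 arrays, passed only when they were paired by pool. SNAI1 and ETS1 were detected and did not pass in either direction, and MYB was not detected. By limma on all probe sets, with Benjamini-Hochberg adjustment and a threshold of 0.05, 4 of the 17 probe sets were called higher and 0 lower. Over all probe sets 0.981% were called higher. By gene, using the probe set with the highest mean, 4 of 8 were called higher against 1.55% of all genes. The median difference of the 8 genes was 1.43 (log2), against -0.02 over all genes. Over the 17 probe sets, of which 5 were present on 0 arrays, the median was 0.10, against -0.02 over all probe sets. With the pool as a block 5 of the 17 probe sets were higher and 0 lower, where 3.97% of all probe sets were higher. The 4 called probe sets were also the only ones of the 17 whose BRE_active arrays all lay above all BRE_inactive arrays, a pattern that 3.74% of all probe sets showed.

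**Figure D1:**
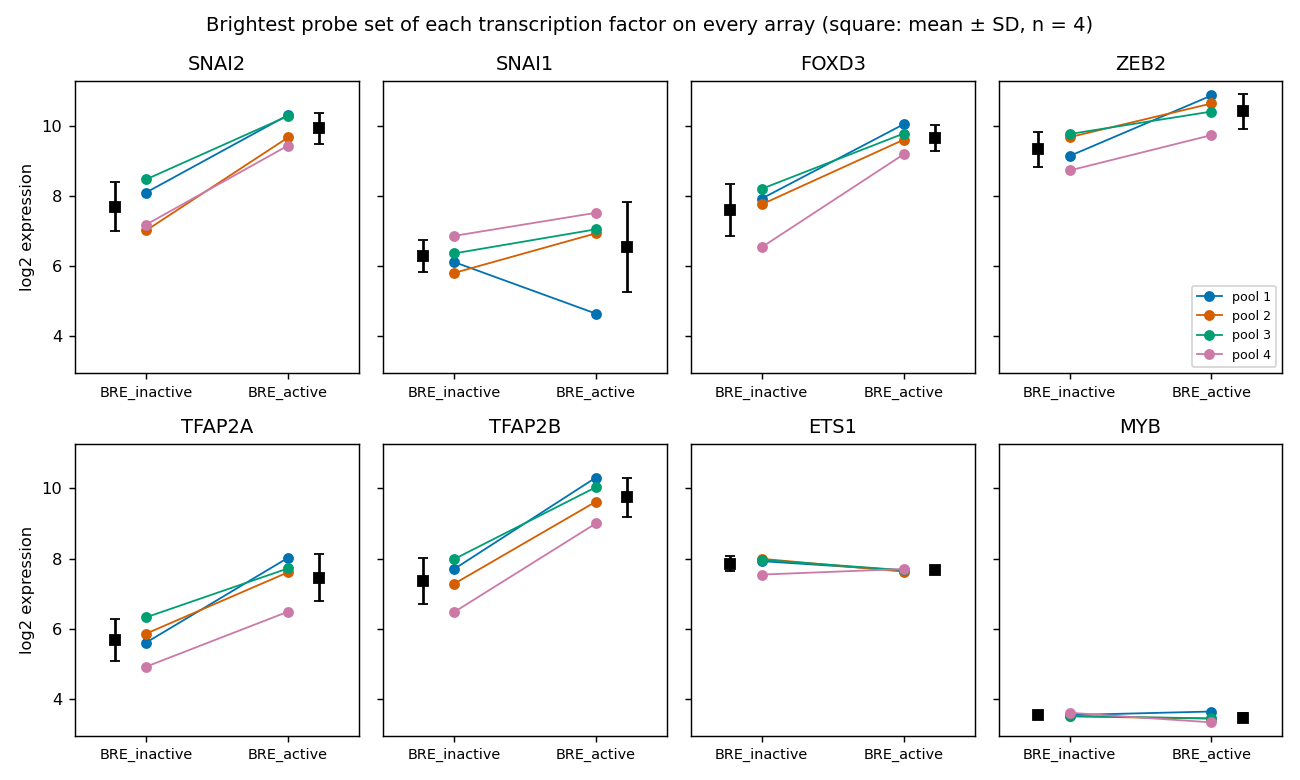
Log2 expression of the brightest probe set of each of the 8 genes, with the 2 sorted groups on the horizontal axis. Coloured points are single arrays, lines join the arrays of 1 pool, and squares with bars are the mean ± SD of 4 arrays. The lines of SNAI2, FOXD3, TFAP2A and TFAP2B climb in every pool without overlap of the groups, ZEB2 climbs with overlap, SNAI1 falls in pool 1 alone, ETS1 is nearly flat and MYB lies near 3.5.

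SNAI2, the Snail gene of the premigratory crest in chick, was present on all 8 arrays. On the BRE_inactive arrays of pools 1 to 4 its log2 level was 8.10, 7.01, 8.47 and 7.18. On the BRE_active arrays it was 10.31, 9.67, 10.28 and 9.44. The groups did not overlap, and pools 1 and 3 were the higher ones in both. Within pools the difference lay between 1.81 and 2.65, and the fitted difference was 2.23 ± 0.33 (SE, n = 4 arrays per group), a 4.69-fold rise with a 95% interval of 2.80 to 7.88 (limma adjusted p = 0.0130). Only 6 probe sets on the whole array had a larger increase.

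SNAI1, its paralogue, was present on all 8 arrays by its brighter probe set. Its BRE_inactive levels in pools 1 to 4 were 6.12, 5.80, 6.36 and 6.86 (log2). Its BRE_active levels were 4.64, 6.93, 7.05 and 7.52. In pools 2 to 4 the BRE_active array was the higher one, and in pool 1 it was lower by a wide margin, so that the BRE_active group spans the whole BRE_inactive group. The pool differences were -1.47, 1.13, 0.69 and 0.66, and the fitted difference of 0.25 ± 0.54 did not pass (limma adjusted p = 0.871, 95% interval -0.96 to 1.46). Without BRE_active 1 the difference was 0.88 (adjusted p = 0.230), without BRE_active 4 it was -0.08 (adjusted p = 0.954), and without pool 2 it was -0.04 (adjusted p = 0.986). The second SNAI1 probe set was present on 2 arrays and gave 0.10 ± 0.14 (limma adjusted p = 0.793).

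BRE_active 1, the array with the low SNAI1 value, also had low levels of mesoderm, endothelial and surface ectoderm markers compared with the other BRE_active arrays. Over 11 measured somite and mesoderm genes, which include TWIST1, PRRX1 and FOXC2, the mean log2 level was 4.73 on BRE_active 1. It was 5.57 to 5.74 on the other BRE_active arrays and 4.92 to 5.20 on the BRE_inactive arrays. Across the 8 arrays SNAI1 correlated with that mean at r = 0.883, and at 0.889 over the 7 arrays without BRE_active 1. No such r was computed for the other marker lists, so the correlation is not shown to be particular to mesoderm genes. The mean of 8 endothelial markers was 4.54 on BRE_active 1 and 5.28 to 5.41 on the other BRE_active arrays, and that of 9 surface ectoderm markers 5.62 against 6.01 to 6.36. Of the BRE_active arrays it also had the lowest mean of red cell (6.50), haematopoietic progenitor and leukocyte (3.66) and ventral markers (5.66). Its mean of dorsal markers was the highest (7.32), while that of neuron markers (7.08) was not extreme. These values are a description over arrays that share pools, and the part of any of these cell types in the SNAI1 level was not tested. Of the 11 genes, 3 were present on 0 arrays and 6 on at least 4. Limma called 0 of them (0 with the pool as a block), with 1 gene, MEOX1, at an unadjusted p of 0.0284. Of all genes 1.55% were called higher and 0.657% lower, or 4.91% and 2.55% with the block. A count of 0 in a list this small is read no further. PRRX1 differed by 0.90 ± 0.42 (limma adjusted p = 0.381), by 1.41 without BRE_active 1 (adjusted p = 0.00858) and by 1.30 without pool 1 (adjusted p = 0.0211).

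**Figure D2:**
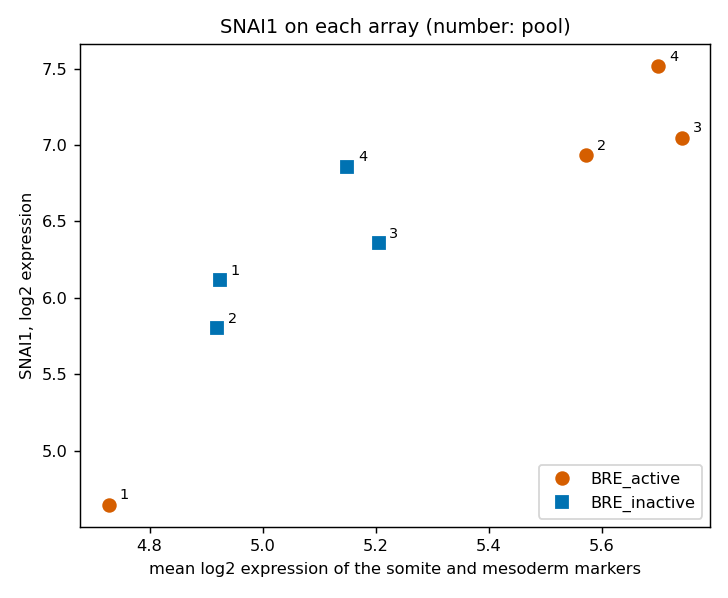
SNAI1 (vertical axis, log2 expression of its brighter probe set) against the mean log2 expression of 11 somite and mesoderm markers (horizontal axis) on the 8 arrays, with the pool number beside each point. BRE_active 1 lies lowest on both axes, at 4.64 and 4.73, and the other BRE_active arrays lie highest on the marker axis.

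The 3 genes most like SNAI1 over the 8 arrays, among 6968 other named genes present on at least 4 arrays, were LUM (Pearson r = 0.993), TWIST1 (0.950) and DCN (0.946). LUM and DCN encode matrix proteoglycans of connective tissue. TWIST1 is a basic helix-loop-helix factor of mesenchyme, and belongs both to the list above and to the other crest genes below. None of the 3 was called, with limma adjusted p = 0.795, 0.630 and 0.607. DCN was called without BRE_active 1, at a difference of 1.31 in place of 0.67 (limma adjusted p = 0.0176). Without pool 1 it was not called (1.35, adjusted p = 0.0530), and no other of the 18 alternative fits called it. DCN was picked by its likeness to SNAI1, which was lowest on BRE_active 1, so this change is no separate evidence. For SNAI2 the 3 most alike were MMP28, APOH and TRMU, with r = 0.990, 0.980 and 0.976. MMP28, a secreted metalloproteinase, rose by 1.07 ± 0.14 (limma adjusted p = 0.00675). A gene with a like difference between the groups has a high r for that reason alone.

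Whether SNAI2 and SNAI1 changed unequally was tested on the SNAI2 minus SNAI1 value within each array. The difference of SNAI2 exceeded that of SNAI1 by 1.98 ± 0.90 (SE, log2), and by 3.68, 1.52, 1.12 and 1.60 in pools 1 to 4. The exact permutation test over the 70 splits of the 8 arrays gave p = 0.0857 (two-sided, 0.0857 after adjustment over 2 paralogue contrasts), where the smallest p it allows is 0.0286. These splits do not use the pairing of the arrays by pool. The contrast did not pass, although it had 1 sign in all 4 pools. Without BRE_active 1 it was 1.22 (exact p = 0.171) and without pool 1 it was 1.41. Without BRE_active 4 it was 2.47, and against the dim SNAI1 probe set 2.13, each with an exact p of 0.0286 that became 0.0571 after adjustment over the 2 contrasts.

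FOXD3, which helps keep crest progenitors in their undifferentiated state, was present on all 8 arrays. Its BRE_inactive log2 levels were 7.92, 7.76, 8.20 and 6.54 in pools 1 to 4. Its BRE_active levels were 10.04, 9.60, 9.78 and 9.19. Pool 4 was lowest in both groups, and the groups did not overlap. The rise was 2.05 ± 0.33 (SE, n = 4), or 4.13-fold with a 95% interval of 2.48 to 6.89 (limma adjusted p = 0.0174), and the pools gave 1.58 to 2.65. The 3 genes with the most similar levels were SOX10 (r = 0.994), DAAM2 (0.992) and TFAP2B (0.990). SOX10 is itself a crest transcription factor, DAAM2 encodes a formin that takes part in Wnt signalling, and both rose, by 2.03 ± 0.25 and 1.61 ± 0.26 (limma adjusted p = 0.00542 and 0.0170).

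TFAP2B had the largest rise of the 8 genes. It was present on all 8 arrays, at 7.70, 7.28, 7.98 and 6.47 (log2) in BRE_inactive and 10.31, 9.62, 10.03 and 9.0 in BRE_active cells of pools 1 to 4. The lowest BRE_active array thus lay above the highest BRE_inactive one, and pool 4 was again lowest in both groups. The difference of 2.39 ± 0.35 (SE, n = 4) is a 5.22-fold rise with a 95% interval of 3.04 to 8.98 (limma adjusted p = 0.0115). Only 4 probe sets of the array had a larger increase. The genes with the most similar levels were DAAM2 (r = 0.995), ZYX (0.994), which encodes the focal adhesion protein zyxin, and the receptor tyrosine kinase gene LTK (0.992).

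TFAP2A was measured nearer to the detection limit in BRE_inactive cells, where it was present on 3 of 4 arrays. Its log2 levels were 5.61, 5.86, 6.33 and 4.92 in BRE_inactive and 8.02, 7.61, 7.72 and 6.49 in BRE_active cells. The groups did not overlap, but the lowest BRE_active value (pool 4) lay only just above the highest BRE_inactive value (pool 3). The rise of 1.78 ± 0.36 (SE, n = 4), 3.44-fold with a 95% interval of 1.98 to 6.00, stood close to the threshold (limma adjusted p = 0.0466) and did not pass on median-centred arrays (adjusted p = 0.0611). The most similar genes were WNT3A (r = 0.997), RAB22A (0.995) and SSFA2 (0.994). WNT3A, a Wnt ligand of the dorsal midline, differed by 2.07 ± 0.45 (limma adjusted p = 0.0612, and 0.000477 when blocked by pool).

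TFAP2A also marks surface ectoderm, so the ectoderm markers are given beside it. Over 9 measured surface ectoderm genes the mean log2 level ranged from 5.62 to 6.36 on the BRE_active and from 6.00 to 6.48 on the BRE_inactive arrays. The ranges of the groups overlap, and the part of surface ectoderm in the TFAP2A level was not tested. Limma called 0 of the 9 in either direction (0 with the pool as a block), and EPCAM alone had an unadjusted p under 0.05, 0.0201, with a difference of -0.74 ± 0.27. Of all genes 1.55% were called higher and 0.657% lower, or 4.91% and 2.55% with the block. A count of 0 in a list this small is read no further. EPCAM, CLDN1 and CDH1, epithelial adhesion and junction genes, were present on all 8 arrays, and GRHL2 was present on 0.

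The AP-2 genes were compared with each other within arrays in the same way. The difference of TFAP2B exceeded that of TFAP2A by 0.60 ± 0.18 (SE, log2), by 0.19, 0.59, 0.66 and 0.96 in pools 1 to 4. The exact permutation p was 0.0571 (two-sided, 0.0857 adjusted over the 2 contrasts), so unequal change was not shown at the threshold. Without BRE_inactive 1 the value was 0.74, with an exact p of 0.0286 (0.0571 adjusted over the 2 contrasts). Both genes shared the extreme arrays of each group: pool 4 was lowest in both groups, and BRE_active 1 and BRE_inactive 3 were highest.

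ZEB2 had 5 probe sets, which differed in detection. The brightest was present on all 8 arrays, with log2 levels of 9.14, 9.67, 9.76 and 8.72 in BRE_inactive and 10.86, 10.63, 10.40 and 9.73 in BRE_active cells of pools 1 to 4. Each pool showed a higher BRE_active value, by 1.73, 0.96, 0.64 and 1.01, while the groups overlapped because BRE_active 4 lay just below BRE_inactive 3. The difference of 1.08 ± 0.28 (SE, n = 4), a fold of 2.12 with a 95% interval of 1.37 to 3.27, did not pass (limma adjusted p = 0.119) and passed with the pool as a block (1.08 ± 0.16, adjusted p = 0.00716). It also passed without BRE_active 4 (1.31, adjusted p = 0.0212) and without pool 4 (1.11, adjusted p = 0.0147).

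The second ZEB2 probe set, present on all BRE_active and 2 BRE_inactive arrays, was also higher in all 4 pools, by 1.87 in pool 1 and by 0.24 to 0.56 in the others. Its difference of 0.80 ± 0.29 did not pass with either fit (limma adjusted p = 0.262, 0.0921 with the block). The remaining 3 probe sets were present on at most 2 arrays and their differences lay between -0.02 and 0.11. The genes most like ZEB2 over the arrays were RASSF8, SORBS2 and AKAP13, with r = 0.994, 0.991 and 0.989. Like ZEB2, each of them was not called by group alone on all 8 arrays, and was called with the pool as a block, without BRE_active 4 and without pool 4. These genes were picked by their likeness to ZEB2 on the same arrays, so the shared pattern of calls is no separate evidence.

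ETS1 was detected without a called difference. Its brightest probe set, present on all 8 arrays, read 7.93, 7.99, 7.96 and 7.54 in BRE_inactive and 7.66, 7.63, 7.67 and 7.70 in BRE_active cells (log2, pools 1 to 4). It was lower in BRE_active cells in 3 pools and higher in pool 4, where the BRE_inactive value stood apart from the other 3. The difference was -0.19 ± 0.11 (limma adjusted p = 0.464), and its 95% interval of -0.43 to 0.05 leaves out a rise of the size seen for the 4 called genes. Without BRE_inactive 4 it was -0.30 (adjusted p = 0.172) and without pool 4 it was -0.31 (adjusted p = 0.0992). The other 4 ETS1 probe sets were dimmer, and those called present on any array differed by -0.08 and -0.25. One of the 4 did not overlap between the groups, lower in BRE_active cells as were 3.39% of all probe sets. It was present on 0 arrays and not called (limma adjusted p = 0.189), so no size of change is read from it.

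ETS1 and MYB are also genes of blood and endothelium. Of 8 haematopoietic progenitor and leukocyte markers, 4 were present on 0 arrays, PTPRC, RUNX1, LYZ and CYBB, and the list mean was 3.66 to 4.02 on BRE_active and 3.63 to 4.09 on BRE_inactive arrays (log2). Limma called 0 of these 8, with CD34 at an unadjusted p of 0.0271, and 0 with the pool as a block. Of all genes 1.55% were called higher and 0.657% lower, or 4.91% and 2.55% with the block. A count of 0 in a list this small is read no further. Without BRE_active 1 CD34, also a marker of endothelium, was called (1.16 in place of 0.81, limma adjusted p = 0.0253). CD34 was present on under 4 arrays and was not called without pool 1 (1.13, adjusted p = 0.0872). Endothelial markers were detected more widely, with 4 of 8 present on at least 4 arrays. Their mean was 4.54 on BRE_active 1, 5.28 to 5.41 on the other BRE_active arrays and 4.57 to 4.74 on the BRE_inactive arrays. Limma called 0 of these 8, with KDR, PECAM1 and VWF at an unadjusted p under 0.05, and 1, KDR, with the block (0.82 ± 0.25, limma adjusted p = 0.200, 0.0339 with the block). The same shares of all genes stand beside these endothelial counts, which are read no further either. Without BRE_active 1 the endothelial cadherin gene CDH5 was called, at 1.45 in place of 0.89 (limma adjusted p = 0.00402), and so was VWF, at 0.66 in place of 0.46 (adjusted p = 0.0301). Without pool 1 CDH5 was called (1.49, adjusted p = 0.0168) and VWF was not (0.68, adjusted p = 0.0851). VWF was present on under 4 arrays. MYB itself was called present on 0 of 8 arrays, with values from 3.33 to 3.64, so that nothing can be said of its level in either group.

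**Figure D3:**
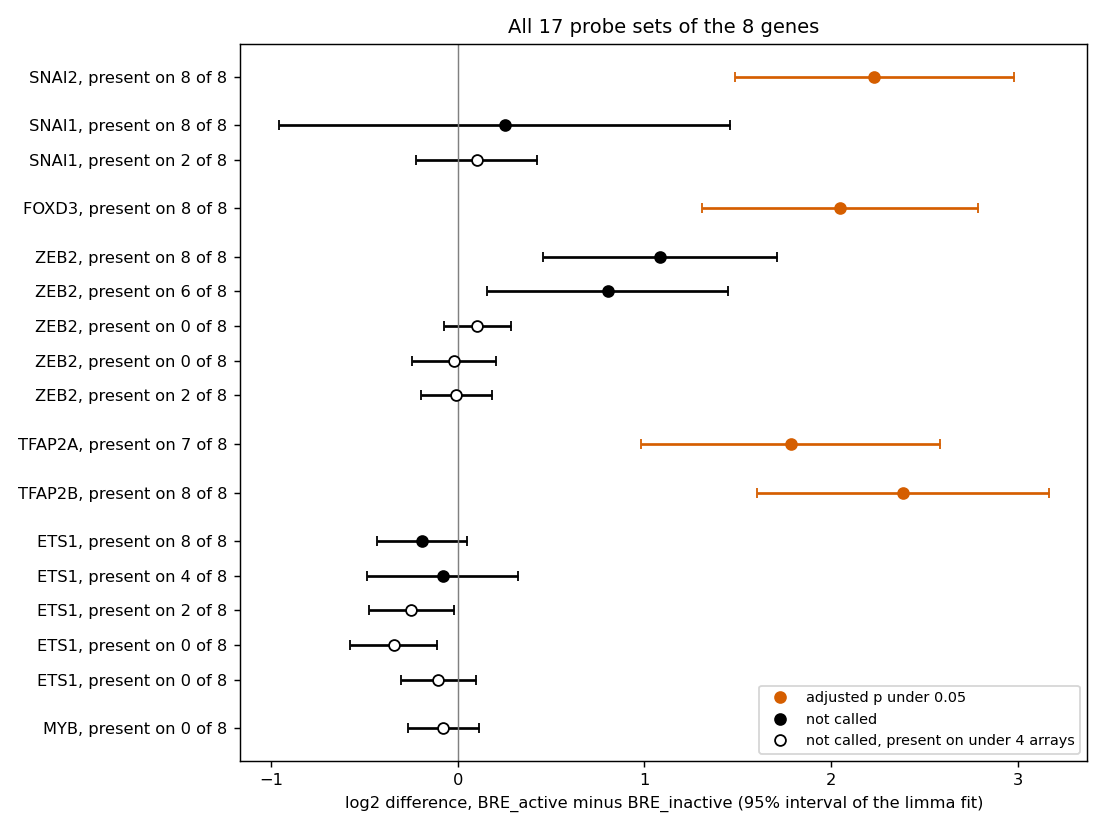
Difference between BRE_active and BRE_inactive cells (horizontal axis, log2) for each of the 17 probe sets, named on the vertical axis by gene and by the number of arrays on which they were present. Bars are 95% intervals of the limma fit. The 4 orange points, SNAI2, FOXD3, TFAP2A and TFAP2B, passed the threshold, at 1.78 to 2.39. The ETS1 points lie between -0.34 and -0.08, and no size of change is read from points present on 0 arrays.

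SNAI2, FOXD3, TFAP2A, TFAP2B and ZEB2, grouped because all were higher in BRE_active cells in every pool, followed each other from array to array. Among these 5 genes the 10 pairwise correlations over 8 arrays were 0.834 to 0.990, which the shared difference between the groups raises. After the group means had been taken out they were 0.454 to 0.956. Of the 4 called genes, all 4 were highest on BRE_active 1 and lowest on BRE_active 4, and 3 of the 4 were lowest on BRE_inactive 4. SNAI1 did not share this order, with correlations of -0.670 to -0.324 with the same 5 genes after the group means had been taken out. ETS1, which was not called, correlated with the 5 at 0.321 (SNAI2) to 0.814 (FOXD3) in the same way. ETS1 stood apart on BRE_inactive 4, at 7.54 (log2) against 7.93 to 7.99 on the other BRE_inactive arrays. Its correlations were not computed without that array. Over all 8 arrays, positive correlations of this kind were not confined to the 5 genes, and no more is read from those of ETS1. In both groups the array of pool 4 also had the smallest 3-prime to 5-prime gap.

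The sizes of the differences changed little when single arrays or pools were left out, whereas the calls changed. SNAI2 stayed between 2.01 and 2.49, FOXD3 between 1.69 and 2.25, TFAP2B between 2.09 and 2.63 and TFAP2A between 1.53 and 2.11. Without BRE_active 3, or without pool 1, 2 or 3, 0 of the 8 genes were called. In those fits the adjusted p of SNAI2 was 0.0562, 0.0960, 0.0919 and 0.0506, while 77 to 211 of all probe sets were called. Without BRE_active 1 TFAP2B alone was called (adjusted p = 0.0392), and without BRE_active 2 SNAI2 and TFAP2B were (0.0431 and 0.0458). Without BRE_inactive 1, 2 or 4 the call of TFAP2A was lost (adjusted p = 0.130, 0.0889 and 0.0963), and without BRE_active 4 or pool 4 there were 5 calls, ZEB2 included.

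**Figure D4:**
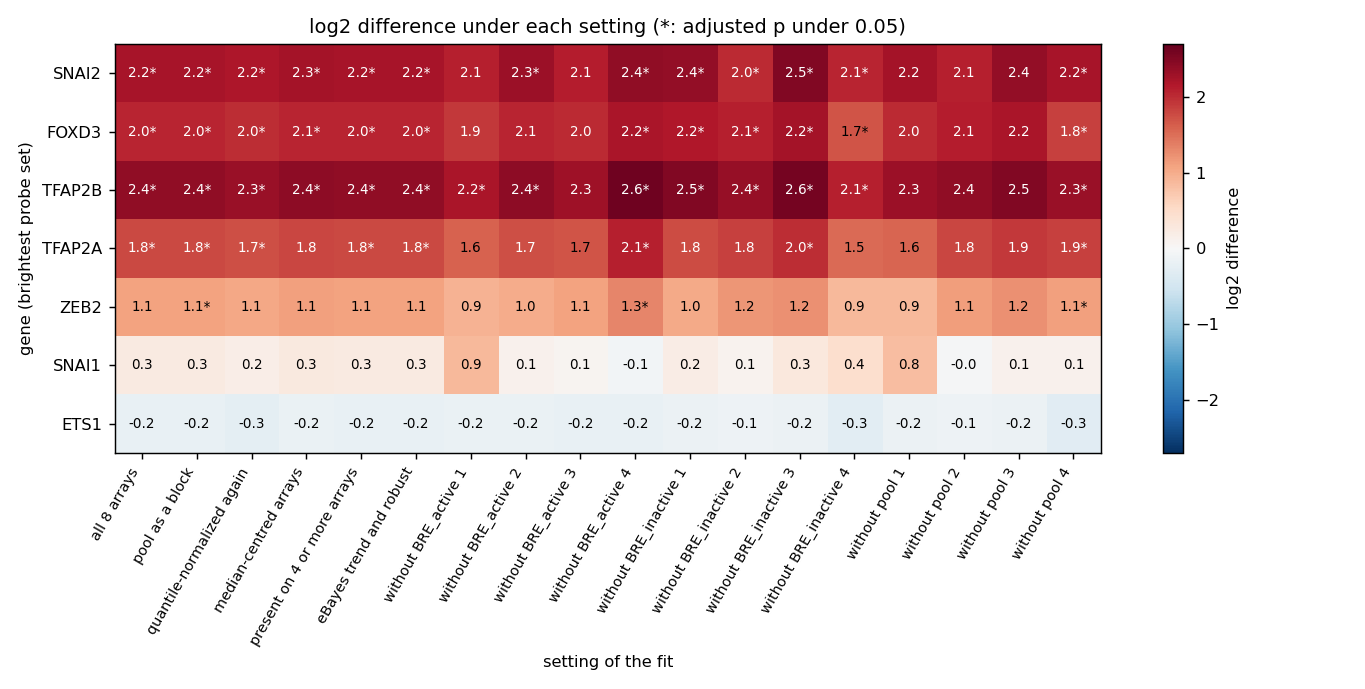
Log2 difference (colour and number) of 7 of the 8 genes by brightest probe set (vertical axis) under each setting of the fit (horizontal axis), with a star where the adjusted p is under 0.05. The values of SNAI2, FOXD3, TFAP2B and TFAP2A remain between 1.53 and 2.63, stars are missing in the columns without BRE_active 3 and without pools 1, 2 and 3, and ZEB2 has 3 stars.

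Relatives of the 8 factors in the same gene families were mostly not called. Of 14 measured relatives 1 rose, where 1.55% of all genes rose, and 0 fell, where 0.657% of all genes fell. With the pool as a block 2 rose, where 4.91% of all genes did, and counts this small are read no further. ELK3, an ETS-family repressor, rose by 0.69 ± 0.14 (limma adjusted p = 0.0429), though not on median-centred arrays (adjusted p = 0.0618). Its call was also lost in each fit that left out 1 array or 1 pool, except those without BRE_active 4, BRE_inactive 3 or pool 4. FOXD1 differed by 0.65 ± 0.28 (adjusted p = 0.339, 0.0459 with the block, 0.0347 without BRE_active 1, 0.0694 without pool 1). ZEB1, the paralogue of ZEB2, differed in the other direction, by -0.54 ± 0.15 (limma adjusted p = 0.164, 0.0601 with the block). Its groups did not overlap, lower in BRE_active cells as were 3.39% of all probe sets. Among the ETS family, ETV1, ETV4 and ETV5, which FGF signalling induces in many tissues, were present on all 8 arrays and differed by -0.03 to 0.06, and FLI1 differed by 0.30 ± 0.22 (adjusted p = 0.577). MYBL1 and MYBL2 differed by -0.36 ± 0.22 and -0.16 ± 0.10 (limma adjusted p = 0.505 and 0.540). The AP-2 genes TFAP2C and TFAP2E, and FOXD2 and ERG, were present on 0 arrays, and ETS2 on 1.

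Genes that act upstream of or beside the 8 factors are given next. Of 13 measured neural plate border genes 3 rose, where 1.55% of all genes rose, and 1 fell, where 0.657% did. Blocking by pool gave 5 higher and 2 lower, where 4.91% of all genes were higher and 2.55% lower. The homeobox genes DLX5, MSX2 and MSX1 rose by 1.81 ± 0.18, 1.69 ± 0.15 and 0.93 ± 0.14 (limma adjusted p = 0.00199, 0.00120 and 0.0138). GBX2, another homeobox gene, fell by 0.74 ± 0.14 (adjusted p = 0.0329, 0.0565 on median-centred arrays), and kept its call without BRE_active 4, BRE_inactive 4 or pool 4 but in no other fit with an array or pool left out. Of 16 measured other crest genes, set against the same shares of all genes, 5 rose and 0 fell, and 8 were higher under the block. The median difference of this list was 0.59. The 5 that rose were EDNRB, an endothelin receptor (2.11 ± 0.22), SOX10 (2.03 ± 0.25), SOX5 (1.92 ± 0.31), LMO4, a LIM-domain cofactor (1.12 ± 0.13), and RXRG, named after its value was seen. The limma adjusted p of the first 4 were 0.00229, 0.00542, 0.0169 and 0.00406. RXRG was called with 0 arrays present in either group, so its size is not given.

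Genes of adhesion and delamination, among them known Snail targets, were mostly not called. Of 23 measured members 2 rose, where 1.55% of all genes rose, and 0 fell, where 0.657% did. The median difference of the list was 0.27. Blocking by pool gave 6 higher, where 4.91% of all genes were higher. DLC1, a GTPase-activating protein gene, rose by 2.07 ± 0.16 (limma adjusted p = 0.000530), and RHOB, a small GTPase of delaminating crest cells, by 0.74 ± 0.14 (adjusted p = 0.0324). CDH11 and ITGB1 differed by 0.66 ± 0.19 and 0.50 ± 0.15 (adjusted p = 0.161 and 0.179, 0.0438 and 0.0330 with the block). CDH6, the Cadherin-6B gene that SNAI2 represses in chick, is named here after its value was seen, and was called present on 0 of 8 arrays. Of 21 measured cofactors and stability regulators of the 8 factors 1 rose and 0 fell, and 3 rose with the block. The same shares of all genes stand beside these counts. The gene called by group alone was KCTD1, whose protein represses AP-2 activity (0.57 ± 0.11, limma adjusted p = 0.0336, 0.0504 with a variance trend). LIMD1, a LIM protein of the AJUBA family that binds Snail proteins, differed by 0.39 ± 0.08 (adjusted p = 0.0510, 0.0383 with the block). Of the list genes named as changed, MSX2, DLX5, EDNRB and DLC1 kept their calls in all 18 alternative fits. LMO4, SOX10 and MSX1 kept them in 16, 15 and 14 of the 18, SOX5 in 10 and RHOB and KCTD1 in 9, with most losses where an array or pool was left out. The 18 include a fit on a second deposited table with the same log2 values, which had to keep every call.

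Markers of position and of neurons moved alongside. Of 5 measured dorsal and roof plate markers 2 rose, where 1.55% of all genes rose. These were RSPO3 (1.67 ± 0.22, limma adjusted p = 0.00674), a secreted enhancer of Wnt signalling, and LMX1B, which was present on 3 BRE_active and 0 BRE_inactive arrays. Where 0.657% of all genes fell, 5 of 6 measured ventral markers fell, with a median difference of -2.21, and 3 of 7 neuron markers fell. Their list means did not overlap between the groups: ventral markers lay at 5.66 to 6.64 on BRE_active and 7.74 to 8.23 on BRE_inactive arrays, and neuron markers at 7.0 to 7.29 and 7.41 to 8.26. These marker levels do not tell cell numbers from RNA per cell, and their part in the rise of the crest factors was not tested.

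**Figure D5:**
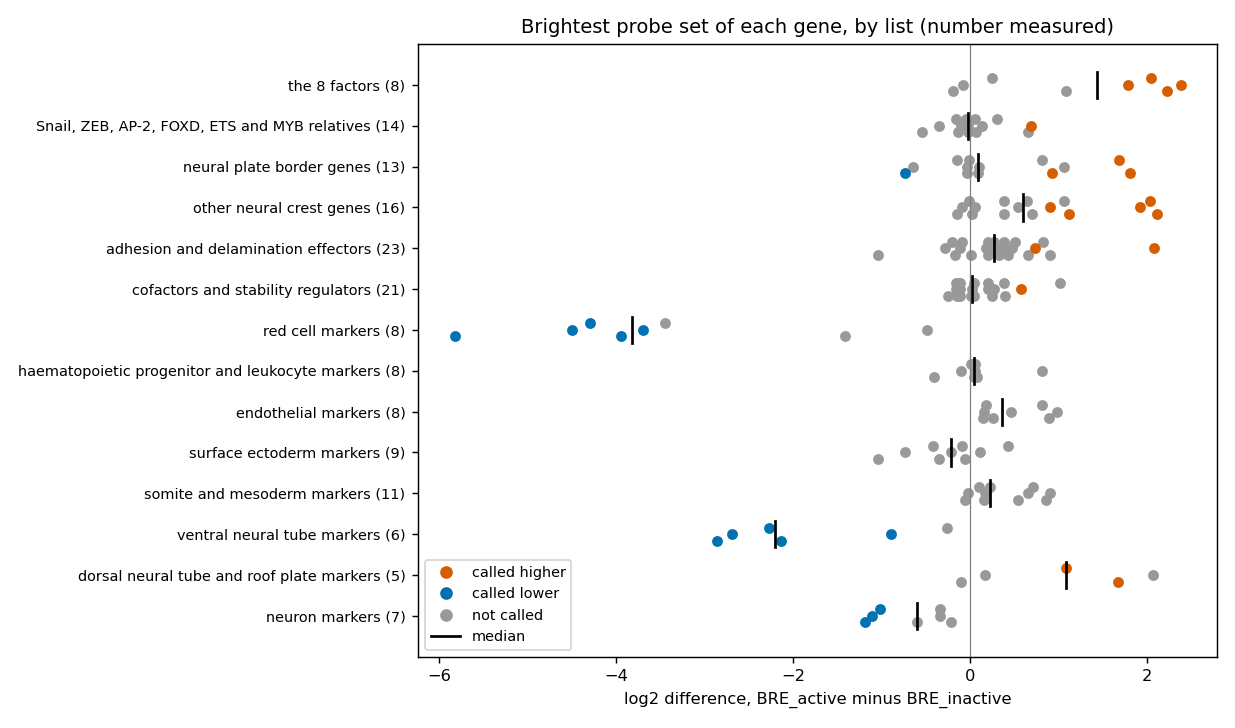
Log2 difference between BRE_active and BRE_inactive cells (horizontal axis) of the brightest probe set of every measured gene, by gene list (vertical axis, number of genes in brackets). Orange points were called higher, blue lower, grey were not called, and black bars are list medians. The 8 factors have a median of 1.43, their family relatives one of -0.03, other crest genes one of 0.59 and ventral markers one of -2.21.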

How the data were processed

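Per the labels' protocols, total RNA of each sorted fraction was made into biotinylated cRNA and hybridised to Affymetrix arrays. The deposited table gives a log2 level for every probe set on every array, the log2 means and difference of the groups, a p-value adjusted by the authors, and the number of arrays with a present, marginal or absent call. How the background was corrected, arrays were normalized, probes were summarised and presence was called is, like the build, not given in the sources used. Limma on group alone returned the authors' p-value to within 6.13e-13, and the second deposited table held the same log2 values within 5.0e-09. The 8 columns of present letters per array were not used.

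After 96 control probe sets had been left out, 38439 were fitted with limma 3.58.1 in R 4.3.3 (group alone, eBayes, Benjamini-Hochberg over all, 0.05). Differences are BRE_active minus BRE_inactive. Symbols were updated by gene ID with a RefSeq table of GRCg7b (22915 of 26132 probe sets with an ID matched), and a gene was read by its brightest probe set. Of 173 list entries, matched to current symbols only, those measured are counted in the text. This matching replaced one by synonyms, which gave wrong genes. Tables were made with Python 3.11.15, pandas 2.3.3 and SciPy 1.17.1.

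The named genes are the 8 factors, their family relatives, up to 4 genes of each list by smallest p (for markers also by highest mean), and the 3 genes of highest Pearson correlation with each factor present on at least 4 arrays. The factors, lists and tests were chosen with earlier results of these data known. Exact permutation tests used all splits of 4 against 4 arrays. With 4 arrays a group, their number limits the precision. On simulated data of 38439 probe sets for this comparison, limma recovered 73 of 100 changes of 1 and 97 of 100 of 2 (log2). It made 10 false calls among the unchanged probe sets. The simulation drew each array independently, without pools, and placed changes only in probe sets above the median level. Its rates therefore do not cover dim probe sets or arrays paired by pool.

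Labels number the arrays by pool, and a pool supplied both fractions, so the arrays are paired by design. Within a pool the 2 arrays' departures from the group averages had correlations of -0.141, 0.203, 0.498 and 0.584 in pools 1 to 4. Alternatives were the pool as a block, another quantile normalization, median-centring, a filter on present calls, a variance trend, the second deposited table, and each array and each pool left out.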

Additional observations from a re-analysis of the deposited data

Results flagged for a closer look

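In 5 of the 34 groups of 4 arrays examined (17 probe sets, 2 groups each), 1 array stood apart from the other 3 by Dixon's criterion, which chance meets in about 1 of 20 groups. The brightest ETS1 probe set read 7.54 (log2) on BRE_inactive 4, below the 7.93 to 7.99 of the other 3 arrays. The dim SNAI1 probe set read 4.89 on BRE_inactive 4, above 4.46 to 4.52, and was present on 1 array of each group. The others were called present on 0 arrays: 2 ETS1 probe sets were lowest on BRE_active 3, at 3.90 and 3.56, and a ZEB2 probe set was highest on BRE_inactive 2, at 3.24.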

How the results depend on the processing

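The count of 4 called genes, and of 4 called probe sets, became 5 with the replicate block (pool of embryos) and 3 with median-centring, and was 4 under the other settings that kept all arrays, the probe set of smallest p included. Leaving out 1 array or 1 pool gave 0 to 5 for both. For the 5 lists of crest genes, relatives, effectors and cofactors the count of 13 calls became 26 with the replicate block and 4 to 21 with 1 array or pool left out (4 without pool 1 or pool 2, 21 without pool 4). The SNAI2 minus SNAI1 contrast of 1.98 was 2.13 with the dim SNAI1 probe set and 1.22 (without BRE_active 1) to 2.47 with 1 array or pool left out. The TFAP2B minus TFAP2A contrast of 0.602 was 0.483 to 0.740. Neither passed under any of these settings after adjustment over the 2 contrasts. Without 1 pool a pass was not possible, since the smallest exact p is then 0.1. With all arrays, or with 1 array left out, an exact p of 0.0286 passes only if both contrasts reach it, and otherwise becomes 0.0571. These failures therefore say little. Paired by pool, an exact sign-flip test gave both p = 0.125, the smallest that 4 pools allow, so it says nothing about stability. Of 108 named probe sets 37 were called, and 0 of these changed sign under any setting run. Where the groups do not overlap, as for the 4 called factors, leaving out an array or pool cannot change the sign. The absence of sign changes therefore says little about stability. The call of the 37 was lost in 190 of 664 alternative values, 183 of them with an array or pool left out. Those fits had fewer arrays, and the cause of the losses was not tested. Over all probe sets 211 were called without BRE_active 3 and 1419 without BRE_active 4, against 517 with all arrays. Where a probe set was present on 0 arrays, no size of change can be read.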
